A study of Caenorhabditis elegans with 12 samples.

Results

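The genes described here are 43 genes of the germ line of the nematode Caenorhabditis elegans, chosen by name for their known function: components of germ granules, RNA-binding proteins of oocytes and early embryos, regulators of the choice between mitosis and meiosis, the MES chromatin proteins and proteins of meiotic chromosomes. They are 43 of the 46926 genes of the deposited table, and all 43 were among the 13695 genes that passed the filter on low counts. The rule names genes and uses no measured value, but the genes were chosen with earlier results of these data known.

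RNA of whole young adult hermaphrodites of the wild-type strain N2 was sequenced after 48 h on agar plates with 100 µM bromhexine (4 libraries), 200 µM genipin (4 libraries) or the solvent DMSO (4 libraries). Bromhexine is used as a mucolytic, and genipin, obtained from gardenia fruit, crosslinks proteins. The plates of all 3 groups held DMSO and FUDR, an inhibitor of DNA synthesis that keeps eggs from developing, so the DMSO worms are also FUDR worms. Every worm was grown at 20 °C on OP50-1 bacteria with streptomycin, and the labels put the 12 libraries in 1 batch. The libraries held 20.3 to 28.1 M counts. Whether the 4 libraries of a group stem from separate cultures is not given, and p-values therefore measure the spread between these libraries alone, which may be technical. Both compounds were set against the same 4 DMSO libraries. In whole worms, more cells of a type and more RNA per cell cannot be told apart.

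The adult hermaphrodite gonad carries germ cells from a mitotic zone at its distal end through meiotic prophase to growing oocytes at its proximal end. Signalling through the Notch receptor GLP-1 keeps the distal cells in mitosis, and RNA-binding proteins such as FBF and GLD-1 control when they enter meiosis. Because oocytes and early embryos are transcriptionally quiet, most control of maternal mRNA in them is exerted by RNA-binding proteins, and germ granules at the nuclear envelope hold many of the RNAs and helicases involved.

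With bromhexine, most of these genes stood modestly higher than with DMSO. Of the 43, 30 rose, 2 fell and 11 did not pass the test, which was edgeR's quasi-likelihood test with Benjamini-Hochberg adjustment over all tested genes and a threshold of 0.05. Over all 13695 tested genes, 40.8% were called in this comparison, 19% higher and 21.8% lower. The log2 fold changes of the 30 ran from 0.21 for mes-2 to 0.64 for lin-41, which are 1.15-fold and 1.56-fold, and none of them reached 2-fold. The median log2 fold change of the 43 was 0.31, against 0.00 over all tested genes. Bromhexine and DMSO libraries did not overlap for 21 of the 43: 19 had every bromhexine library above every DMSO library and 2 every one below, while over all tested genes 16.2% were fully above and 19.7% fully below. With genipin, none of the 43 was called. Without DMSO replicate 3 the number that rose with bromhexine was 18, and without bromhexine replicate 1 or bromhexine replicate 3 it was 19.

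**Figure D1:**
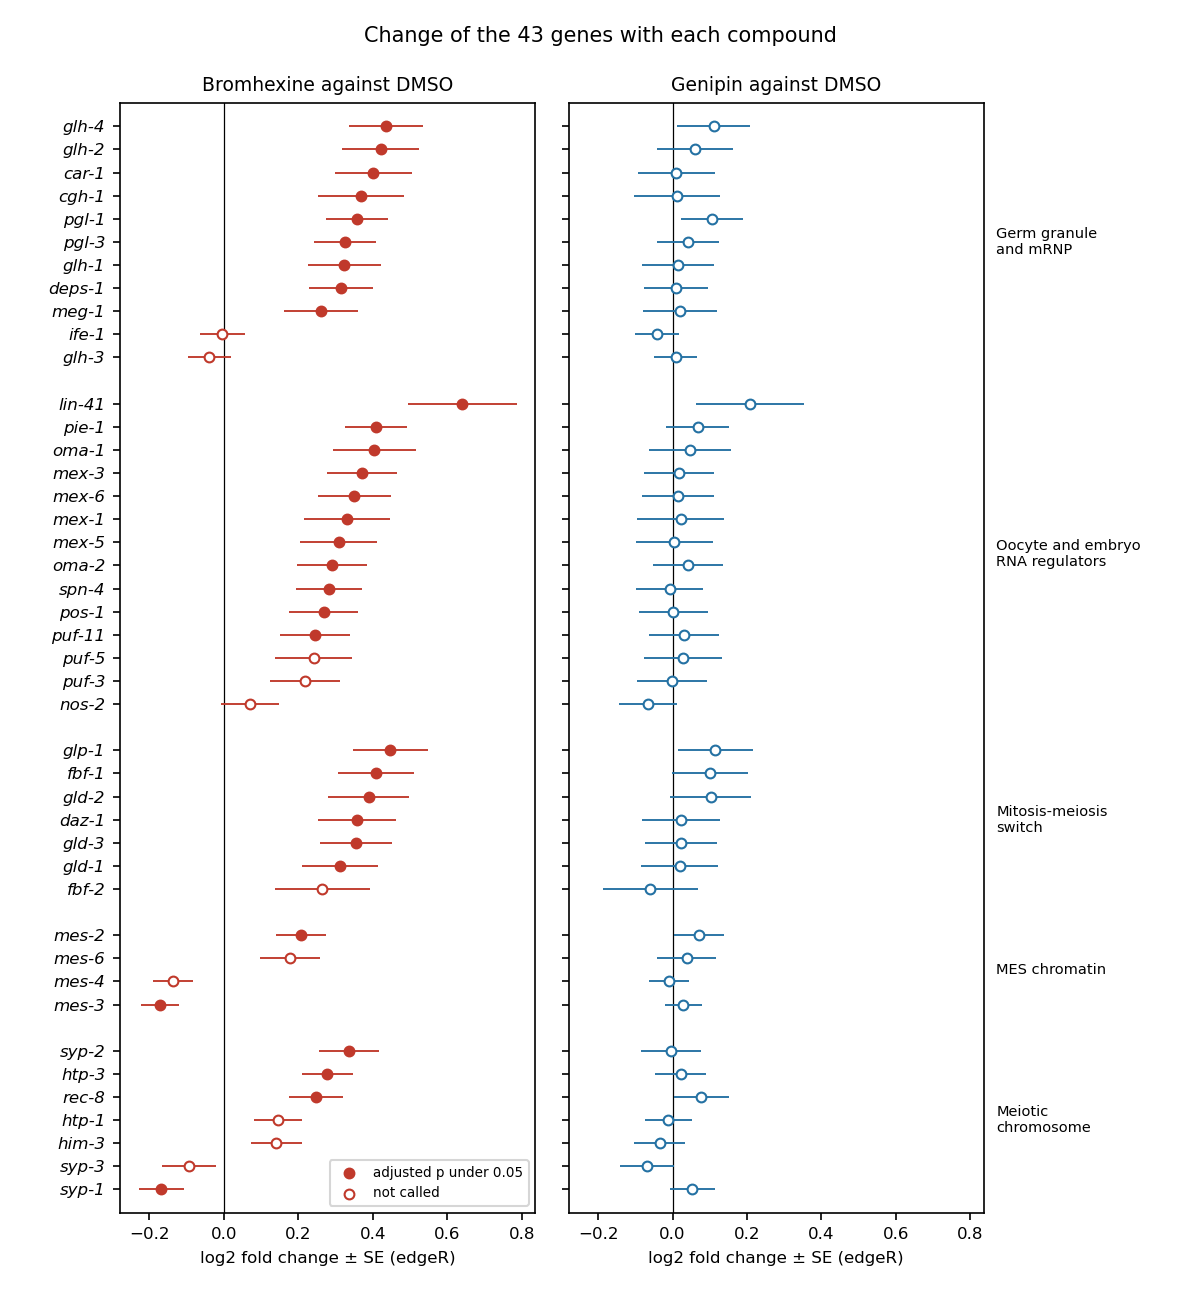
Log2 fold change with its SE (edgeR, 4 libraries a group) of each of the 43 genes, with bromhexine against DMSO on the left and genipin against DMSO on the right; filled points passed an adjusted p of 0.05. In the left panel 32 points are filled, 30 of them to the right of 0, and in the right panel none is filled.

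Levels below are CPM, the counts of a gene relative to the TMM-scaled size of its library, given for replicates 1 to 4 of each group, and changes are log2 fold changes with their SE from 4 libraries a group. Germ granules, also called P granules, are condensates of RNA and protein that mark the germ lineage of the worm. Of the 11 genes for germ granule and related mRNP proteins, 9 rose with bromhexine, none fell, and the median log2 fold change was 0.33.

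The GLH proteins are DEAD-box helicases related to Vasa and are constitutive parts of these granules. Libraries of bromhexine worms held 159.7, 141, 154 and 122 CPM of glh-4, those of genipin worms 108, 132, 96.3 and 124 CPM, and those of DMSO worms 113.4, 108, 96.6 and 108 CPM. All 4 bromhexine values of glh-4 lay above all 4 DMSO values, with a log2 fold change of 0.44 ± 0.10 (edgeR adjusted p = 0.00312). Levels of glh-2 were 201, 177, 191 and 159 CPM with bromhexine, 132, 166, 116 and 154 CPM with genipin and 147, 140.4, 119.6 and 137 CPM with DMSO. Here too bromhexine and DMSO did not overlap, and the log2 fold change was 0.42 ± 0.10 (edgeR adjusted p = 0.00519). Its close relative glh-1 (chromosome I, 6854478 to 6857536, forward strand in WBcel235) was at 335, 282, 325 and 279 CPM with bromhexine, 228, 273, 217 and 268 CPM with genipin and 283, 244, 213 and 235 CPM with DMSO. It rose by 0.32 ± 0.10 (edgeR adjusted p = 0.0162), though DMSO replicate 1 was as high as the lower bromhexine libraries. The remaining Vasa relative, glh-3, was not called: it had 69.0, 65.8, 66.5 and 64.7 CPM with bromhexine, 62.1, 71.8, 68.7 and 72.3 CPM with genipin and 71.0, 69.3, 67.8 and 65.2 CPM with DMSO. Its log2 fold change was -0.04 ± 0.06, with a 95% interval of -0.16 to 0.08 that ends below the values of the other GLH genes.

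PGL-1 and PGL-3 are the RNA-binding scaffold proteins of P granules. The pgl-1 gene (chromosome IV, 6974441 to 6977318, reverse strand) had 498, 462, 480.0 and 416 CPM with bromhexine, 381, 436, 334 and 408 CPM with genipin and 369, 385, 328 and 367 CPM with DMSO. For pgl-3 the values were 282, 245, 257 and 229 CPM with bromhexine, 191, 232, 185 and 224 CPM with genipin and 202, 216, 185 and 205 CPM with DMSO. In both genes the lowest bromhexine library stood above the highest DMSO library, and they rose by 0.36 ± 0.08 (edgeR adjusted p = 0.00388) and 0.33 ± 0.08 (edgeR adjusted p = 0.00678). deps-1, whose protein promotes the assembly of PGL-1 into granules, rose by 0.32 ± 0.09 (edgeR adjusted p = 0.00982). meg-1, which encodes a disordered granule protein of the embryo and is the only one of the 43 genes on the X chromosome, rose by 0.26 ± 0.10 (edgeR adjusted p = 0.0476). The most abundant mRNAs of this group, also per length, encode translational repressors of oocytes, the DEAD-box helicase CGH-1 and the Sm-like protein CAR-1. cgh-1 had 2260.0, 2089, 2251 and 1794 CPM with bromhexine, 1577, 1922, 1326 and 1730.3 CPM with genipin and 1759.8, 1763, 1352 and 1626 CPM with DMSO. car-1 had 1447, 1286, 1399.8 and 1179.7 CPM with bromhexine, 936, 1174, 846 and 1095 CPM with genipin and 1078, 1062, 876 and 1006 CPM with DMSO. Both rose without overlap between bromhexine and DMSO libraries, cgh-1 by 0.37 ± 0.12 (edgeR adjusted p = 0.0199) and car-1 by 0.40 ± 0.10 (edgeR adjusted p = 0.00704). The cap-binding translation factor gene ife-1, whose protein binds PGL-1, was not called, with 155, 158, 170.1 and 173 CPM with bromhexine, 149, 167, 161 and 162 CPM with genipin and 168, 177, 157 and 156 CPM with DMSO (edgeR adjusted p = 0.958).

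The RNA regulators of oocytes and early embryos bind maternal mRNAs and control their translation during oocyte growth, maturation and the first cleavages. Of these 14 genes, 11 rose with bromhexine, none fell, and the median log2 fold change was 0.30. The largest log2 fold change of the 43 genes was that of lin-41 (chromosome I, 9334800 to 9342496, reverse strand), which encodes a TRIM-NHL protein that holds oocytes back from maturing early. It had 493, 409, 452 and 357 CPM with bromhexine, 319, 388, 227 and 334 CPM with genipin and 298, 296, 214 and 289.6 CPM with DMSO. Every bromhexine library was above every DMSO library, and DMSO replicate 3 was well below the other DMSO libraries. The log2 fold change with bromhexine was 0.64 ± 0.15 (edgeR adjusted p = 0.00333). With genipin it was 0.21 ± 0.15 (edgeR adjusted p = 0.994), with a 95% interval of -0.10 to 0.52.

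The smallest adjusted p of the 43 with bromhexine belonged to pie-1 (chromosome III, 12426893 to 12429195, forward strand), whose CCCH zinc-finger protein keeps germline blastomeres transcriptionally silent. Its levels were 121, 122, 122 and 101 CPM with bromhexine, 87.5, 102, 81.6 and 96.2 CPM with genipin and 81.1, 97.5, 83.7 and 88.8 CPM with DMSO. Bromhexine replicates 1 to 3 were nearly equal, replicate 4 was lower but still above all DMSO libraries, and the log2 fold change was 0.41 ± 0.08 (edgeR adjusted p = 0.00161). The KH-domain gene mex-3, a translational repressor in embryos, was at 729.8, 698, 699 and 563 CPM with bromhexine, 523, 599.8, 448 and 536 CPM with genipin and 492, 557, 494 and 538 CPM with DMSO. It rose by 0.37 ± 0.09 (edgeR adjusted p = 0.00629), again without overlap between bromhexine and DMSO libraries.

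OMA-1 and OMA-2 are CCCH zinc-finger proteins that act redundantly in oocyte maturation. Levels of oma-1 were 478, 446, 451 and 369 CPM with bromhexine, 328, 399, 270.4 and 363 CPM with genipin and 311, 364, 294 and 348 CPM with DMSO. Those of oma-2 were 927, 909.8, 909 and 742 CPM with bromhexine, 736, 826, 632 and 741 CPM with genipin and 648, 793, 664 and 746 CPM with DMSO. oma-1 rose by 0.40 ± 0.11 without overlap (edgeR adjusted p = 0.0101), and oma-2 rose by 0.29 ± 0.09 with bromhexine replicate 4 inside the DMSO range (edgeR adjusted p = 0.0241). Among the CCCH genes of the early embryo, the polarity regulators mex-5 and mex-6 rose by 0.31 ± 0.10 (edgeR adjusted p = 0.0278) and 0.35 ± 0.10 (edgeR adjusted p = 0.0107). In bromhexine worms mex-5 had 1147, 1043, 1072 and 867 CPM, in genipin worms 826, 976, 695 and 847 CPM and in DMSO worms 806, 905, 749.7 and 872 CPM. In bromhexine worms mex-6 had 684, 643, 653 and 538 CPM, in genipin worms 508, 572, 413 and 502 CPM and in DMSO worms 474, 528, 449 and 523 CPM. Only mex-6 of this pair had no overlap between bromhexine and DMSO.

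The genes mex-1, pos-1 and spn-4, which encode CCCH or RRM proteins of embryonic cell fate, rose by 0.33 ± 0.12, 0.27 ± 0.09 and 0.28 ± 0.09 (edgeR adjusted p = 0.0346, 0.032 and 0.0209). The Pumilio-family genes lay near the threshold. puf-11 had 515, 484, 479 and 391.7 CPM with bromhexine, 396, 455, 346 and 414 CPM with genipin and 382, 437, 363 and 394 CPM with DMSO. Its close relative puf-3 had 665, 594, 622 and 507 CPM with bromhexine, 502, 573, 441 and 537 CPM with genipin and 521, 556, 461 and 515 CPM with DMSO. puf-11 just passed at 0.25 ± 0.09 (edgeR adjusted p = 0.0492), while puf-3 at 0.22 ± 0.09 (edgeR adjusted p = 0.0747) and puf-5 at 0.24 ± 0.10 (edgeR adjusted p = 0.0742) did not. The Nanos gene nos-2, which acts in the primordial germ cells of the embryo, had 248, 266, 256 and 233 CPM with bromhexine, 236, 236, 215 and 226 CPM with genipin and 202, 273, 243 and 239 CPM with DMSO. Its groups overlapped widely, at 0.07 ± 0.08 (edgeR adjusted p = 0.5), and DMSO replicate 1 was the lowest of the 12 libraries.

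The 7 genes of the switch between mitosis and meiosis had the highest median log2 fold change of the 5 roles, 0.36; 6 of them rose with bromhexine and none fell. The Notch receptor gene glp-1 (chromosome III, 9092241 to 9099698, forward strand) had 369.7, 345, 346 and 289 CPM with bromhexine, 289, 301, 212 and 269 CPM with genipin and 245, 256, 226 and 263 CPM with DMSO. Bromhexine and DMSO libraries were fully apart, and the log2 fold change was 0.45 ± 0.10 (edgeR adjusted p = 0.00302). With genipin the log2 fold change of glp-1 was 0.11 ± 0.10, with a 95% interval of -0.10 to 0.33. FBF-1 and FBF-2 are PUF proteins that maintain germline stem cells downstream of GLP-1. fbf-1 was at 50.1, 42.9, 46.2 and 38.6 CPM with bromhexine, 35.3, 39.7, 29.97 and 38.5 CPM with genipin and 38.1, 30.6, 32.5 and 32.4 CPM with DMSO. fbf-2 was at 23.7, 21.4, 23.7 and 19.1 CPM with bromhexine, 17.7, 18.2, 15.3 and 18.8 CPM with genipin and 22.8, 14.8, 16.2 and 19.1 CPM with DMSO. fbf-1 rose by 0.41 ± 0.10 without overlap between bromhexine and DMSO (edgeR adjusted p = 0.00598). fbf-2 varied more among the DMSO libraries and was not called, at 0.26 ± 0.13 (edgeR adjusted p = 0.109).

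GLD-3, a Bicaudal-C relative, and GLD-2, the cytoplasmic poly(A) polymerase it partners, promote entry into meiosis, as does the KH-domain repressor GLD-1. gld-3 had 424, 402, 422 and 328 CPM with bromhexine, 322, 347, 263 and 319 CPM with genipin and 306, 338, 274 and 315 CPM with DMSO. gld-2 had 203, 187, 193 and 161 CPM with bromhexine, 156, 178, 125 and 151 CPM with genipin and 159, 150.1, 116 and 143 CPM with DMSO. gld-3 rose by 0.36 ± 0.10 (edgeR adjusted p = 0.00971), with bromhexine replicate 4 inside the DMSO range, and gld-2 rose by 0.39 ± 0.11 (edgeR adjusted p = 0.0113) with none inside it. gld-1 rose by 0.31 ± 0.10 (edgeR adjusted p = 0.0249), and daz-1, a DAZ-family gene needed for oogenesis, by 0.36 ± 0.10 (edgeR adjusted p = 0.0143).

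Of the 4 MES genes, 1 rose with bromhexine and 1 fell, near the shares of all tested genes, 19% and 21.8%. MES-2, MES-3 and MES-6 form the worm's Polycomb repressive complex, a histone methyltransferase, and MES-4 is a separate histone methyltransferase that marks germline-expressed genes. mes-3 (chromosome I, 4996835 to 5003202, forward strand) had 126, 117, 115 and 112.6 CPM with bromhexine, 143, 132, 132 and 135 CPM with genipin and 136, 132, 132 and 131 CPM with DMSO. All 4 bromhexine libraries were below all genipin and all DMSO libraries, and mes-3 fell by 0.17 ± 0.05 on the log2 scale (edgeR adjusted p = 0.0141). mes-2 had 109, 101, 111 and 88.5 CPM with bromhexine, 86.5, 96.9, 90.1 and 98.2 CPM with genipin and 89.4, 88.9, 87.7 and 87.8 CPM with DMSO. It rose by 0.21 ± 0.07 (edgeR adjusted p = 0.0246), with bromhexine replicate 4 inside the narrow DMSO range. mes-6 had 94.6, 81.8, 90.3 and 72.3 CPM with bromhexine, 75.6, 79.2, 69.8 and 82.9 CPM with genipin and 79.5, 76.5, 70.5 and 72.9 CPM with DMSO, and mes-4 had 197, 177, 187 and 179 CPM with bromhexine, 196, 212, 197 and 203 CPM with genipin and 211, 201, 194 and 207 CPM with DMSO. Neither was called: the log2 fold changes were 0.18 ± 0.08 for mes-6 (edgeR adjusted p = 0.0869) and -0.14 ± 0.05 for mes-4 (edgeR adjusted p = 0.0534). The subunits of the same complex, mes-2 and mes-3, were called in opposite directions, but mes-2 in only 8 of the 12 fits that left out 1 library. Scaled on other germline genes, as described below, mes-2 was at -0.01 ± 0.05 and not called (edgeR adjusted p = 0.845).

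Of the 7 genes for meiotic chromosome proteins, 3 rose with bromhexine and 1 fell, with a median log2 fold change of 0.14. SYP proteins form the central region of the synaptonemal complex that joins paired homologs. syp-2 had 66.6, 64.7, 69.0 and 56.6 CPM with bromhexine, 53.8, 54.6, 43.9 and 50.5 CPM with genipin and 46.9, 54.2, 50.8 and 51.6 CPM with DMSO. syp-1 (chromosome V, 16404274 to 16407701, forward strand) had 79.2, 69.1, 71.8 and 76.1 CPM with bromhexine, 77.3, 89.2, 90.4 and 88.2 CPM with genipin and 83.1, 82.1, 82.7 and 84.8 CPM with DMSO. The bromhexine libraries of syp-2 were all above both other groups, and those of syp-1 were all below DMSO but reached into the range of genipin. syp-2 rose by 0.34 ± 0.08 (edgeR adjusted p = 0.00442) and syp-1 fell by 0.17 ± 0.06 (edgeR adjusted p = 0.0382) on the log2 scale. syp-3 was not called, at -0.09 ± 0.07 (edgeR adjusted p = 0.313). syp-1 was called in 5 of the 12 fits that left out 1 library, and mes-3 in all 12. The counts of syp-1 were fractional in 11 of the 12 libraries, and F13A7.14 overlaps it on the same strand. The fall of syp-1 is therefore less certain, and the sum of syp-1 and F13A7.14 was not tested.

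HTP-3, HTP-1 and HIM-3 are HORMA-domain proteins of the chromosome axis, and REC-8 is the meiotic kleisin of cohesin. htp-3 had 180.4, 166, 163 and 143 CPM with bromhexine, 132, 149, 129 and 136 CPM with genipin and 132, 139, 131 and 136 CPM with DMSO. rec-8 had 115, 108, 111 and 94.6 CPM with bromhexine, 93.03, 105, 84.4 and 98.3 CPM with genipin and 89.8, 94.2, 85.1 and 92.3 CPM with DMSO. Both rose with every bromhexine library above every DMSO library, htp-3 by 0.28 ± 0.07 (edgeR adjusted p = 0.00521) and rec-8 by 0.25 ± 0.07 (edgeR adjusted p = 0.0153). htp-1 had 90.9, 84.4, 86.9 and 74.1 CPM with bromhexine, 73.1, 74.7, 73.6 and 80.3 CPM with genipin and 79.03, 75.7, 72.0 and 77.2 CPM with DMSO. It did not pass the test, at 0.14 ± 0.06 (edgeR adjusted p = 0.0827), nor did him-3, at 0.14 ± 0.07 (edgeR adjusted p = 0.112).

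**Figure D2:**
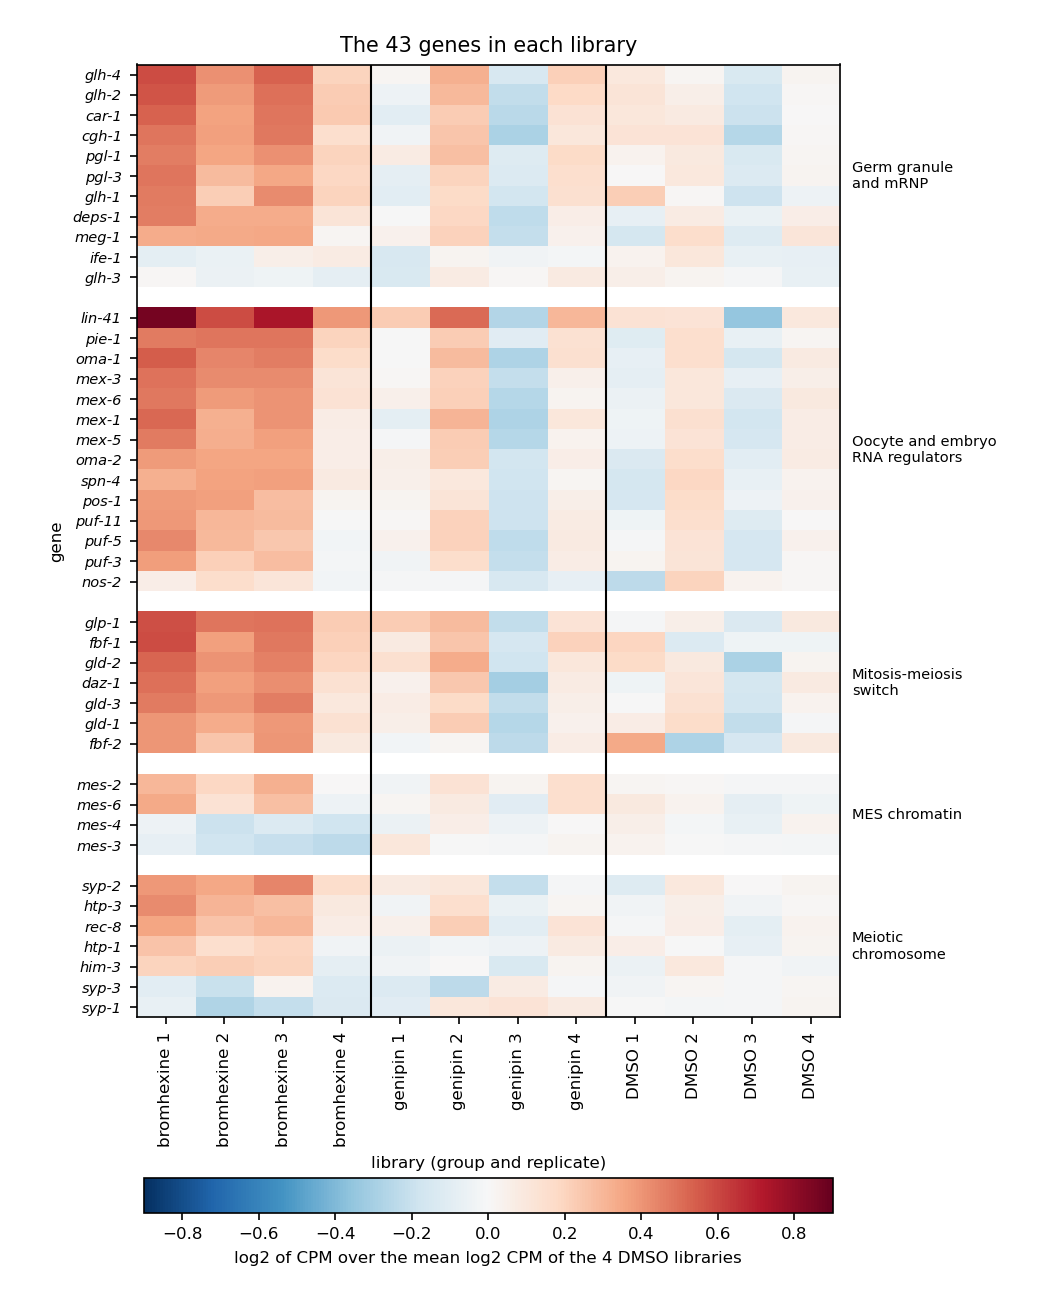
Log2 of the CPM of each of the 43 genes over its mean log2 CPM in the 4 DMSO libraries, for each of the 12 libraries, with genes grouped by role and, within a role, ordered by log2 fold change with bromhexine. Bromhexine replicates 1 to 3 are red for most genes and bromhexine replicate 4 is paler, while ife-1, glh-3, mes-3, mes-4, syp-3 and syp-1 lack the red.

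The same libraries were low for most of the genes in each group. Bromhexine replicate 4 was the lowest bromhexine library for 39 of the 43 genes, genipin replicate 3 the lowest genipin library for 36, and DMSO replicate 3 the lowest DMSO library for 26. The median log2 ratio of the 43 genes to their DMSO mean was 0.42, 0.33, 0.37 and 0.09 in bromhexine replicates 1 to 4. In genipin replicates 2 and 3 it was 0.21 and -0.18, and in DMSO replicates 2 and 3 it was 0.09 and -0.11. Bromhexine replicate 4 thus lay closer to the DMSO libraries than to its own group, and a genipin library was higher than it by this median. In bromhexine replicates 1, 2 and 3, 36, 34 and 37 of the 43 genes were above all DMSO libraries. In bromhexine replicate 4, 19 were above, 18 inside and 6 below the DMSO range. Single genipin libraries also left that range for most of the genes: 32 were above it in genipin replicate 2, and 27 below it in genipin replicate 3. The same counts per library were not made over all tested genes. Among all libraries, summed body wall muscle markers were highest in bromhexine replicate 4, at 2189 CPM. The other bromhexine libraries had 1729 to 1832 CPM. In the other groups the muscle sums and the 43 genes went the same way. Within genipin both were highest in replicate 2 (muscle sum 2044 CPM) and lowest in replicate 3 (1171 CPM). Within DMSO both were lowest in replicate 3 (937 CPM). The part of muscle in the germline levels of these libraries was not tested. The 43 genes together took 1.79% ± 0.177 of all counts with bromhexine, 1.58% ± 0.142 with genipin and 1.59% ± 0.118 with DMSO (SD, n = 4 each).

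**Figure D3:**
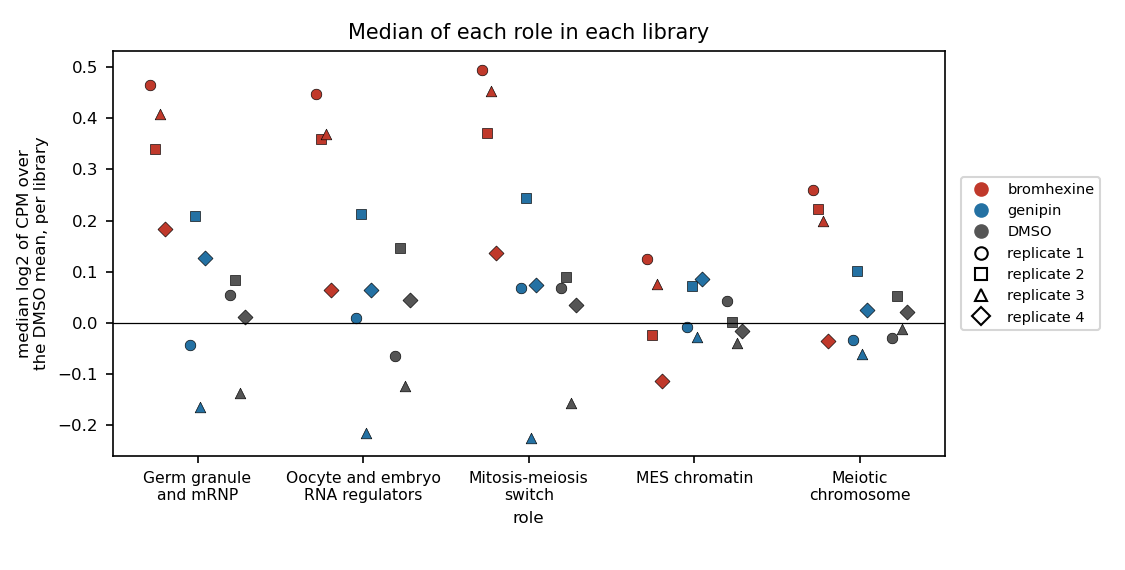
Median, over the genes of each role, of the log2 ratio of CPM to the mean of the DMSO libraries, with 1 point per library, colour for the group and marker shape for the replicate number. Bromhexine replicates 1 to 3 stand apart from the other libraries for germ granule, oocyte and switch genes, with bromhexine replicate 4 below genipin replicate 2, and the MES genes of all groups lie close to 0.

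Genipin against DMSO gave no called gene among the 43, and 0 at an unadjusted p under 0.05; DESeq2 also called 0. Over all tested genes 0.0365% were called in this comparison, 5 genes in number, and 671 had an unadjusted p under 0.05. Log2 fold changes of the 43 with genipin ran from -0.07 to 0.21 with a median of 0.02. Their 95% intervals all lay between -0.33 and 0.52, and that of pie-1 ran from -0.11 to 0.25. The smallest adjusted p was 0.994, held by several genes including lin-41, pgl-1, glh-4 and glp-1. None of the 43 had genipin and DMSO libraries free of overlap, while over all tested genes 1.5% were fully above and 1.58% fully below. Genipin replicate 1 stood apart in genes outside these 43: the cytochrome P450 gene cyp-35B3 had 10.5 CPM there, 0.937, 0.653 and 0.35 CPM in genipin replicates 2 to 4, 332 to 399 CPM with bromhexine and 0 CPM in each DMSO library. Without that library the count of called genes among the 43 was still 0.

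Set against each other at these single doses, which differ, bromhexine and genipin differed for 25 of the 43 genes: 23 were higher with bromhexine and 2 lower, with a median log2 fold change of 0.29. Over all tested genes 34.5% were called in this comparison, 15% higher and 19.5% lower (2057 and 2671 genes, against 1476 and 3024 under upper quartile scaling). By role, 8 of 11 germ granule genes, 8 of 14 oocyte and embryo regulators, 5 of 7 switch genes and 2 of 7 meiotic genes were higher with bromhexine. The 2 that were lower were again mes-3, at -0.20 ± 0.05 (edgeR adjusted p = 0.00728), and syp-1, at -0.22 ± 0.06 (edgeR adjusted p = 0.0125). The smallest adjusted p among those higher with bromhexine belonged to syp-2, at 0.34 ± 0.08 (edgeR adjusted p = 0.00485), and pie-1, at 0.34 ± 0.08 (edgeR adjusted p = 0.00629). For lin-41 the difference was 0.43 ± 0.15 (edgeR adjusted p = 0.0327). Bromhexine libraries were all above the genipin libraries for 4 of the 43 genes and all below for 1, against 11.2% and 16.5% of all tested genes. The count of 23 depended on the libraries: without bromhexine replicate 1 it was 5 higher, without genipin replicate 3 it was 8, without bromhexine replicate 3 it was 9, without genipin replicate 1 it was 12, without bromhexine replicate 2 it was 13 and without bromhexine replicate 4 it was 36.

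The 43 were also set beside 4 lists of other germline genes, 93 in all. In RNA of whole worms, part of the counts of these 93 genes may come from other tissues. Among 17 other germ granule genes 10 rose and none fell (median log2 fold change 0.25). Among 21 other germline RNA regulators 15 rose and 1 fell (0.27), and among 42 other meiotic genes 24 rose and 1 fell (0.26). Of 13 other germline chromatin genes 1 rose and 3 fell (-0.05). On this scale 19% of all tested genes rose and 21.8% fell, so the falls of the chromatin list lie near that share. When the libraries were scaled so that these 93 other germline genes set the level in place of all genes, the median of all tested genes with bromhexine shifted to -0.21 on the log2 scale, and 40.7% of all tested genes were called, 5.71% higher and 35% lower.

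Relative to the other germline genes, 8 of the 43 were higher with bromhexine: lin-41, glp-1, glh-4, glh-2, pie-1, car-1, mex-3 and pgl-1. As the counts of the genes that set this level may come partly from other tissues, it is not a scale of germ cells alone. The largest log2 differences on this scale were 0.42 ± 0.11 for lin-41 (edgeR adjusted p = 0.00767), 0.23 ± 0.06 for glp-1 (edgeR adjusted p = 0.0133) and 0.21 ± 0.06 for glh-4 (edgeR adjusted p = 0.0116). Another 6 were lower: mes-3 at -0.39 ± 0.06 (edgeR adjusted p = 0.000554), syp-1 at -0.38 ± 0.08 (edgeR adjusted p = 0.00303), mes-4 at -0.35 ± 0.05 (edgeR adjusted p = 0.000426), and syp-3, glh-3 and ife-1. The other 29 did not pass the test on this scale, among them 22 that rose on the scale of all genes. The direction of mes-2, mes-6, htp-1, him-3, nos-2 and puf-3 differed between the scalings, without a call on the second. Only mes-3 and syp-1 were called lower on both. The lists that set this level held called genes too, where 5.71% of all tested genes were higher and 35% lower. Of 13 other germline chromatin genes 1 was higher and 9 were lower, and of 42 other meiotic genes 4 were higher and 7 lower. Of 17 other germ granule genes 4 were higher and 2 lower, and of 21 other germline RNA regulators 1 was higher and 3 lower. In each fit that left out 1 of the 12 libraries, lin-41, glp-1, glh-4 and pie-1 remained called higher on the germline scale and mes-3, mes-4 and syp-1 called lower. The count of 8 fell to 4 without bromhexine replicate 1, DMSO replicate 3 or DMSO replicate 4 and to 5 without bromhexine replicate 3, and the count of 6 fell to 3 without bromhexine replicate 3 or DMSO replicate 3. No gene of the 43 was called with genipin on this scale, where 0.0219% of all tested genes were called. Between bromhexine and genipin 8 were higher and 4 lower, against 5.03% and 26.5% of all tested genes, 31.6% in either direction. Without genipin replicate 3 that count of 8 was 0, without bromhexine replicate 1, 2 or 3 it was 1, without genipin replicate 1 or DMSO replicate 4 it was 5, and without DMSO replicate 3, bromhexine replicate 4 or genipin replicate 2 it was 13, 15 and 16.

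**Figure D4:**
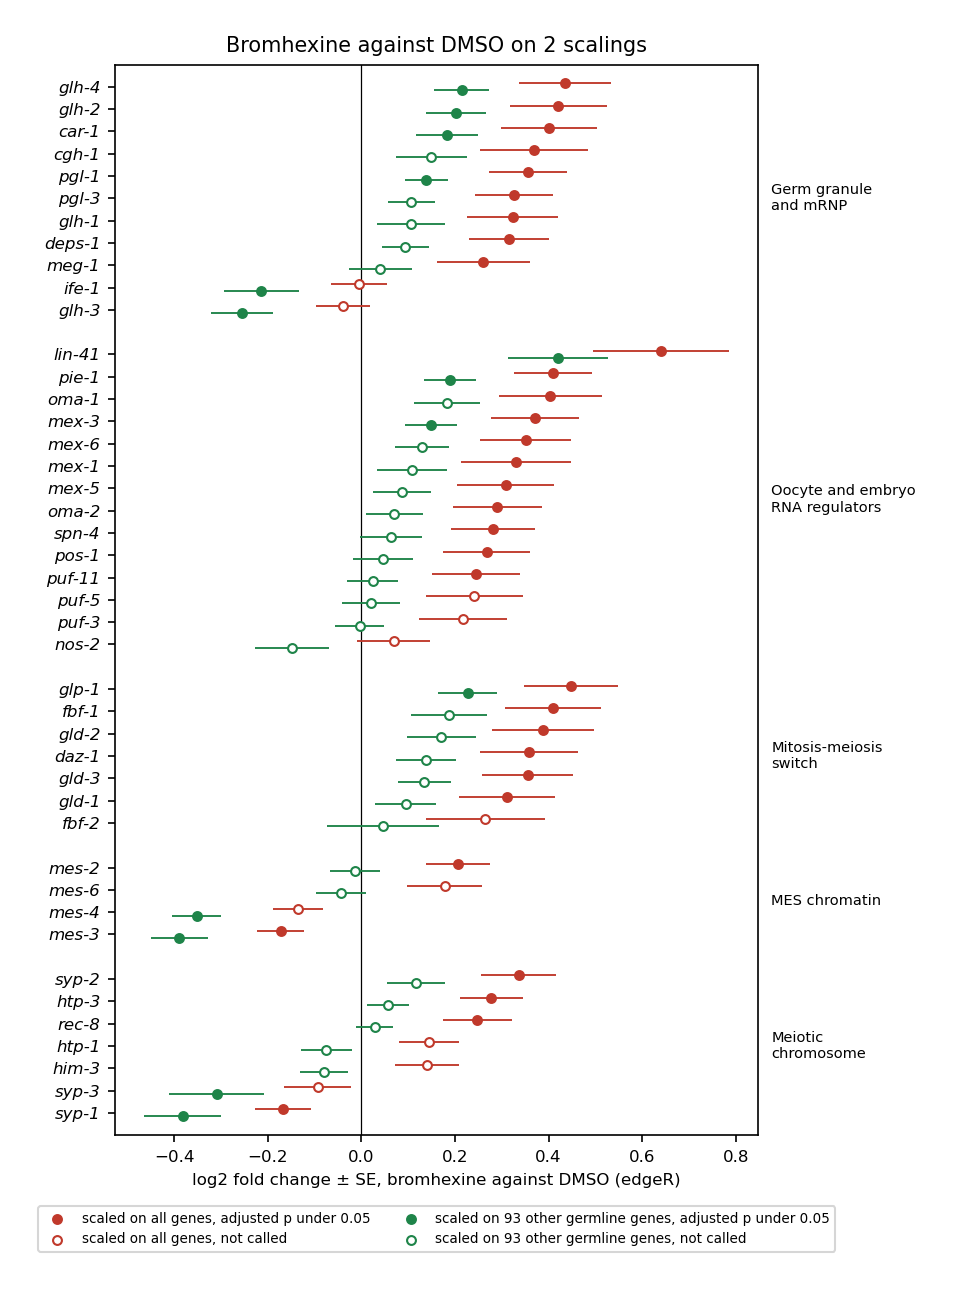
Log2 fold change with its SE (edgeR, 4 libraries a group) of each of the 43 genes with bromhexine against DMSO, scaled on all genes and on 93 other germline genes; filled points passed an adjusted p of 0.05. All points shift to the left on the second scaling, where 8 are filled to the right of 0 and 6 to the left.

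Some markers of other cells were also called with bromhexine, where 19% of all tested genes rose and 21.8% fell. Counts near these shares, as for the somatic gonad and neuron lists, are no result about those cells. Body wall muscle markers rose for 9 of 11 genes, with summed levels of 1729 to 2189 CPM with bromhexine, 1171 to 2044 CPM with genipin and 937 to 1652 CPM with DMSO. Intestine markers rose for 6 of 12 and fell for 1, with sums of 4856 to 5292 CPM with bromhexine, 2618 to 2991 CPM with genipin and 2436 to 2893 CPM with DMSO. Most of the rise of that sum came from asp-1, at 2909 CPM with bromhexine and 1390 CPM with DMSO, and cpr-1, at 1154 and 391 CPM. The median log2 fold change of the list was 0.18, and 3 of the 12 were negative. Somatic gonad markers rose for 3 of 10 and fell for 1, with sums of 526 to 638 CPM with bromhexine, 366 to 518 CPM with genipin and 354 to 443 CPM with DMSO. Oocyte and eggshell markers rose for 7 of 12 and fell for 1, with sums of 15535 to 18644 CPM with bromhexine, 13100 to 17320 CPM with genipin and 13643 to 15229 CPM with DMSO. Sperm markers were low, with sums of 37.3 to 76.9 CPM with bromhexine, 23.3 to 51.9 CPM with genipin and 26.3 to 48.1 CPM with DMSO, and 2 of the 28 tested rose. Markers of zygotic transcription in embryos were lower still, at 14.3 to 24.7 CPM with bromhexine, 20.2 to 25.3 CPM with genipin and 21.7 to 25.3 CPM with DMSO, with none of 8 called. Of the 9 tested epidermis markers 2 rose and 4 fell, and of the 10 neuron markers 3 rose and 2 fell, and no marker of any of these lists was at 0 in all 12 libraries. The part of these cells in the levels of the 43 genes was not tested.

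Several of the 43 have close copies between which reads can be divided, so 6 pairs were also tested as sums. With bromhexine 4 of the 6 sums rose: glh-1 with glh-2 at 0.36 ± 0.10 (edgeR adjusted p = 0.0106), fbf-1 with fbf-2 at 0.36 ± 0.10 (edgeR adjusted p = 0.0119), oma-1 with oma-2 at 0.33 ± 0.10 (edgeR adjusted p = 0.0177) and mex-5 with mex-6 at 0.32 ± 0.10 (edgeR adjusted p = 0.0209). puf-3 with puf-11, at 0.23 ± 0.09 (edgeR adjusted p = 0.0647), and htp-1 with its copy htp-2, at 0.11 ± 0.06 (edgeR adjusted p = 0.157), did not pass. Against genipin 4 of the 6 sums were higher with bromhexine, and with genipin against DMSO none was called. With the pairs summed, 19% of all genes were called higher with bromhexine against DMSO and 15% against genipin. The share of a pair's counts held by glh-1 was 62.6% with bromhexine, 63.6% with genipin and 64.1% with DMSO, and that held by oma-1 was 33.3%, 31.6% and 31.6% in the same groups. Of the pairs, only fbf-1 and fbf-2 carried fractional expected counts, in 11 of 12 libraries each, which shows that reads were divided between genes there. In glh-4 and syp-1 the values of 11 of 12 libraries were fractional too, and in ife-1, nos-2 and mes-6 those of all 12. These genes are correspondingly less certain. Without bromhexine replicate 1, DMSO replicate 1 or DMSO replicate 3, 2 of the 6 sums rose. Against genipin none was higher without bromhexine replicate 1, bromhexine replicate 3, genipin replicate 1 or genipin replicate 3, and 2 were without bromhexine replicate 2 or genipin replicate 4.

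In the genome, 15 of the 43 genes overlap another annotated gene, and for 6 of them that gene averaged at least 20 CPM. The sources used here do not state whether counting used the strand, so reads of such pairs may not be told apart. The 6 differ in this: pie-1 and syp-3 had 0 fractional values, ife-1, nos-2 and mes-6 had them in 12 libraries and syp-1 in 11. The gene on the opposite strand of pie-1, snr-6, averaged 112 CPM with bromhexine and 133 CPM with DMSO and fell by 0.25 ± 0.07 (edgeR adjusted p = 0.012), the reverse of pie-1. On the same strand as syp-1, F13A7.14 was not called, at 0.10 ± 0.07 (edgeR adjusted p = 0.254). It averaged 59.6 CPM with bromhexine and 55.7 CPM with DMSO, where syp-1 averaged 74.1 and 83.2 CPM. Opposite nos-2, him-14 rose by 0.47 ± 0.09 (edgeR adjusted p = 0.00122), and opposite syp-3, mrt-1 rose by 0.28 ± 0.08 (edgeR adjusted p = 0.01), while nos-2 and syp-3 themselves were not called. The others are dro-1 beside ife-1 and C09G4.4 beside mes-6. By chromosome, 13 of the 43 lie on I, 9 on II, 4 on III, 9 on IV, 7 on V and 1 on X. That is 2.33% on X, where 14.4% of the tested protein-coding genes lie, and 30.2% on I, where 16.2% lie. Among these genes, pgl-1 and him-3 lie head to head on IV with 189 bases between them, and mex-5 and rec-8 likewise with 529 bases. pgl-1, mex-5 and rec-8 rose with bromhexine and him-3 did not pass the test.

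Levels can be compared between genes only per length of transcript, here as CPM per kb of exon. In DMSO worms the highest were pos-1 at 871 ± 80.8, cgh-1 at 715 ± 84.9, car-1 at 707 ± 64.4 and spn-4 at 643 ± 66.8 CPM per kb (SD, n = 4). The neighbours cgh-1, car-1 and spn-4 differed in this order by about their spread or less. The lowest were fbf-2 at 7.97 ± 1.55, fbf-1 at 14.8 ± 1.44, gld-2 at 22.6 ± 2.97 and syp-1 at 27.2 ± 0.379 CPM per kb (SD, n = 4), of which syp-1 and its neighbour glh-3, at 27.4 ± 0.987, lay within their spread. Genes at both ends rose with bromhexine: pos-1 averaged 1049 ± 115 CPM per kb in bromhexine worms, and fbf-1 averaged 19.7 ± 2.17 CPM per kb (SD, n = 4).

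**Figure D5:**
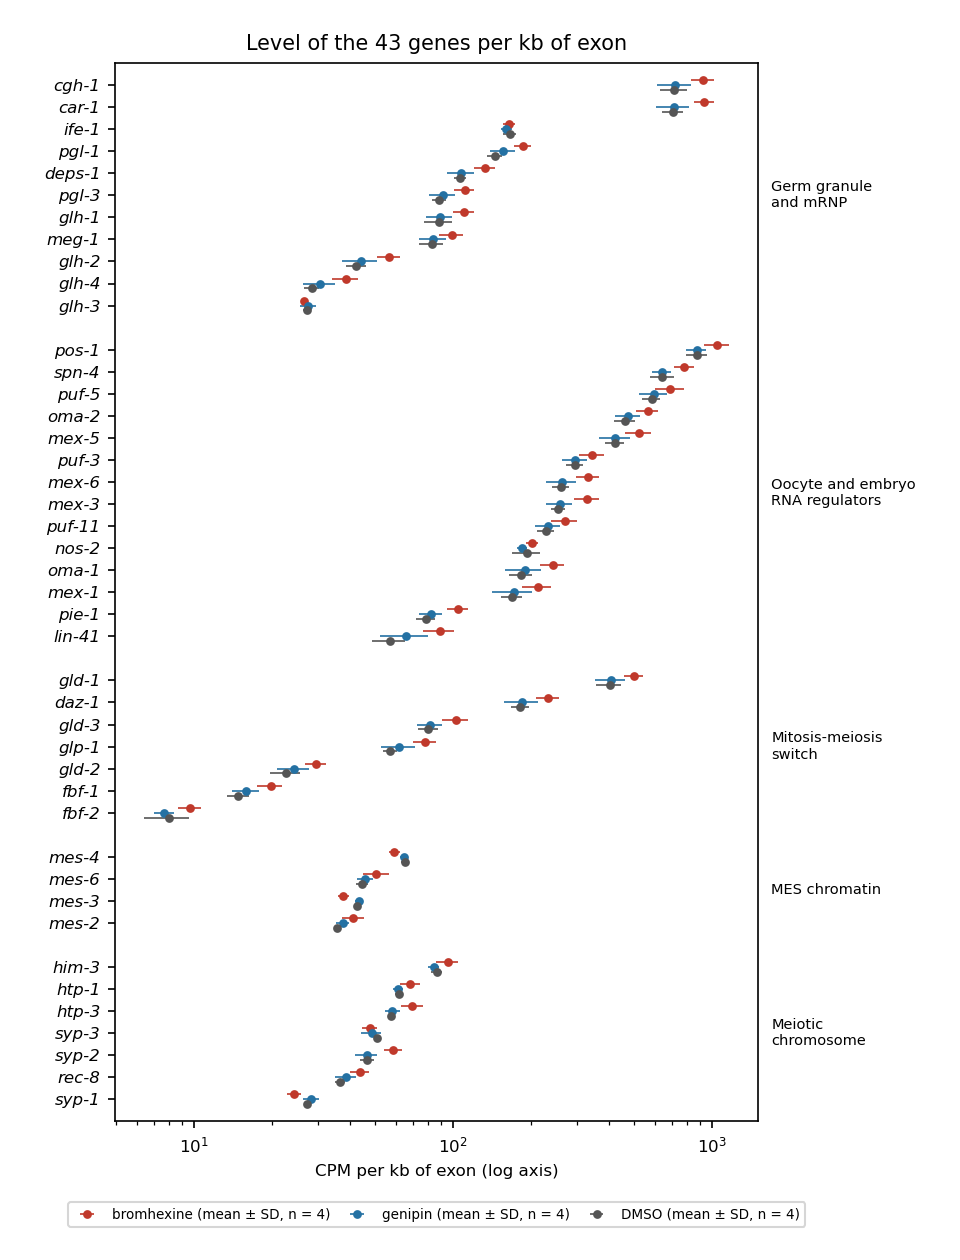
Mean level of each of the 43 genes in CPM per kb of exon on a log axis, with bars for the SD of 4 libraries, for bromhexine, genipin and DMSO worms. Levels span from 7.97 CPM per kb for fbf-2 to 871 CPM per kb for pos-1 in DMSO worms, and the bromhexine point lies to the right of the DMSO point for most genes.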

How the data were processed

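RNA of whole worms in 12 libraries was read in pairs of 150 nt, per the labels. The submitters' processing notes name FastQC, STAR 2.7.11b, RSEM 1.3.3 and the build WBcel235. For trimming, the strand setting and the annotation release nothing is given in the sources used here. The deposited values are expected counts per gene, which RSEM makes by dividing reads that match several genes, and 2.06% of them carry decimals. All 46926 gene IDs were found in Ensembl release 115 (WBcel235), which gave symbols and positions. Of 223 genes on the lists of other germline genes and markers, 220 were matched.

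Expected counts were rounded and fitted in R 4.3.3 with edgeR 4.0.16: filterByExpr (13695 genes), TMM scaling and 1 quasi-likelihood fit of all 12 libraries with the group as its only term. Benjamini-Hochberg adjustment ran over all tested genes of a comparison, with calls at an adjusted p under 0.05. SEs were taken from the log2 fold change and its F statistic. CPM use TMM-scaled library sizes. For the germline scale, the library sizes were set by 93 other germline genes. Replicates differed beyond sampling noise, with chi-squared per degree of freedom of 6.19 to 31.4. Totals of 20.3 to 28.1 M counts put the spread between libraries, not counting error, in charge of the precision.

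The 43 genes, the lists and the tests were chosen with earlier results of these data known. Described in full are, per role, up to 4 genes with the smallest adjusted p for each compound, genes called against the direction of their role, and members of the paralog pairs. Of the other lists, up to 3 called genes with the smallest p may be named. Other genes are named where they overlap one of the 43 or mark a library, and were chosen after their values were seen. The alternatives were RLE and upper quartile scaling, DESeq2 1.42.0, a threshold of 0.01, each library left out, a replicate block, a fit of the 8 libraries of a comparison alone, and no filter or 1 CPM in at least 4 libraries.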

Additional observations from a re-analysis of the deposited data

Results flagged for a closer look

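In 5 of the 129 sets of 4 libraries (43 genes in 3 groups) the lowest library lay far from the other 3, by Dixon's criterion of a gap over 0.829 of the range. Chance flags about 1 in 20 sets. For 4 genes this library was bromhexine replicate 4: meg-1 had 197 CPM there and 245 to 248 CPM in the other bromhexine libraries, oma-2 had 742 CPM and 909 to 927 CPM, pie-1 had 101 CPM and 121 to 122 CPM, and him-3 had 95.5 CPM and 116 to 118 CPM. For lin-41 it was DMSO replicate 3, with 214 CPM, where the other DMSO libraries had 290 to 298 CPM. Bromhexine replicate 4 was also the lowest bromhexine library for 39 of the 43 genes, and without it 35 of the 43 rose with bromhexine against DMSO and 36 were higher with bromhexine than with genipin.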

How the results depend on the processing

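Among the 43 genes, no called value changed sign under any of the 20 alternatives, and 14 of the 30 that rose with bromhexine were called under all of them. At an adjusted p under 0.01, 14 rose and 0 fell with bromhexine against DMSO, 3 were higher and 1 lower than with genipin, 1 and 0 were higher on the germline scale against DMSO and genipin, and 0 and 0 pairs rose. Counted over all genes at that threshold, 1295 rose and 1893 fell with bromhexine, 2 rose and 0 fell with genipin, and 855 were higher and 1602 lower with bromhexine than with genipin. RLE scaling and DESeq2 left 1 of the 43 lower with bromhexine. Upper quartile scaling gave 25 of the 43 higher and 3 lower, and over all genes moved bromhexine against genipin to 1476 higher and 3024 lower, against 2057 and 2671 with TMM. Over all genes with genipin, DESeq2 gave 14 higher and 17 lower, no filter 9 and 8, and fits of only the 8 libraries 2 higher. On the germline scale, fits of only the 8 libraries left 2 of the 43 higher than with genipin.

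Leaving out 1 library gave 18 to 35 of the 43 higher and 1 to 3 lower with bromhexine against DMSO, and 5 to 36 higher and 2 lower against genipin. On the germline scale these ranges were 4 to 12 higher and 3 to 6 lower, and 0 to 16 higher and 3 to 5 lower. Of the pairs, 2 to 6 and 0 to 6 rose. Over all genes, 1856 to 2921 rose and 2383 to 3333 fell with bromhexine, 2 to 9 rose and 0 to 8 fell with genipin, and 1301 to 2578 were higher and 2000 to 3094 lower with bromhexine than with genipin. The cause of these shifts was not tested.

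The labels do not say that a replicate number marks a shared culture. The deviations of same-numbered libraries from their group means had r of -0.03, -0.02, -0.03 and -0.13 for bromhexine and DMSO and of 0.00, 0.28, 0.33 and 0.11 for genipin and DMSO, where replicates 2, 3 and 4 each correlated best with their own number and replicate 1 did not. For bromhexine and genipin r ran from -0.10 to -0.07. As not every pair was above 0.1, the samples were not treated as paired. With the replicate number as a block, 30 of the 43 rose and 1 fell with bromhexine, and 2 genes of all fell with genipin.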

Other observations

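Among germline genes outside the 43, sygl-1, a direct target of GLP-1 signalling that maintains stem cells, averaged 151.9 ± 13.2 CPM with bromhexine, 109 ± 12.9 CPM with genipin and 107 ± 9.24 CPM with DMSO (SD, n = 4 each). It rose by 0.51 ± 0.09 with bromhexine (edgeR adjusted p = 4.47e-04). The Argonaute gene wago-4 rose by 0.49 ± 0.09 (edgeR adjusted p = 9.06e-04), and prg-1, the Piwi gene of the worm, by 0.37 ± 0.08 (edgeR adjusted p = 0.0029). Of the meiotic genes, him-14, a MutS homolog of crossover formation, and syp-5, another central region gene, rose by 0.47 ± 0.09 (edgeR adjusted p = 0.00122) and 0.43 ± 0.08 (edgeR adjusted p = 0.00128). puf-12 fell by 0.26 ± 0.06 on the log2 scale (edgeR adjusted p = 0.00267).

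Among germline chromatin genes, the histone methyltransferase gene set-25 rose by 0.48 ± 0.07 (edgeR adjusted p = 1.40e-04), while lin-15B averaged 68.0 ± 6.55 CPM with bromhexine and 94.3 ± 5.17 CPM with DMSO (SD, n = 4 each) and fell by 0.47 ± 0.07 (edgeR adjusted p = 1.60e-04). Of 13 replication genes none rose and 4 fell with bromhexine, with a median log2 fold change of -0.02, where 21.8% of all tested genes fell. On the germline scale, which shifts the median of all tested genes to -0.21, 12 of the 13 and 35% of all tested genes were lower. The ribonucleotide reductase gene rnr-2 had 906 to 1131 CPM with bromhexine, 1320.0 to 1735 CPM with genipin and 1382 to 1645 CPM with DMSO and fell by 0.55 ± 0.09 (edgeR adjusted p = 4.37e-04). Among oocyte and eggshell markers, cav-1 moved the other way: it averaged 514 ± 155 CPM with bromhexine and 1164 ± 170.4 CPM with DMSO (SD, n = 4 each) and fell by 1.18 ± 0.17 (edgeR adjusted p = 1.16e-04), while egg-3 rose by 0.51 ± 0.09 (edgeR adjusted p = 4.85e-04). No gene of these lists was called with genipin.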
